A study of Mus musculus with 44 samples.

Results

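The 5 mouse lymphomas with the highest levels of interferon-stimulated transcripts were compared with the other lymphomas of the same collection. The 5 were chosen by measured values: in each of the 43 lymphomas, the log2 levels of Irf7, Oasl2 and Rsad2 were taken relative to the mean of the lymphomas of the same array set, the 3 values were averaged, and the 5 highest lymphomas were set against the other 38. The collection held 44 arrays of total RNA, 43 of lymphomas and 1 of a spleen, which was left out of all comparisons. All animals carried the Eµ-myc transgene, in which the immunoglobulin heavy chain enhancer drives Myc in B lineage cells, so the 5 and the 38 shared this genotype. The labels give no treatment, age or sex, leave it unsaid whether any animal gave more than 1 lymphoma, and do not say which lymphomas were frozen as tissue and which as suspended cells. The p-values below therefore measure the spread between these samples. The arrays fell into 2 sets with different overall levels, the 36 lymphomas with the lower title numbers (set 1) and the 7 with the higher ones (set 2). Lymphomas 13, 4, 7 and 22 of the 5 belonged to set 1 and lymphoma 39 to set 2.

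Type I interferons are cytokines that bind a receptor of the subunits Ifnar1 and Ifnar2 and, through Jak kinases and a transcription factor complex that contains Irf9, switch on a large group of interferon-stimulated genes. Many of their products sense foreign nucleic acids, block steps of virus growth or conjugate the ubiquitin-like protein Isg15. Interferon gamma, the type II interferon of T cells and natural killer (NK) cells, acts through a receptor of its own and induces an overlapping group that includes guanylate-binding proteins, chemokines and antigen presentation genes.

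The 3-gene mean was 4.70 log2 units above the set mean in lymphoma 13, 2.26 in lymphoma 4, 1.89 in lymphoma 7, 1.63 in lymphoma 22 and 1.43 in lymphoma 39. Just outside lay lymphoma 36 at 0.53, lymphoma 30 at 0.46 and lymphoma 8 at 0.37, and the lowest of the 38 was at -0.96. These values chose the groups and are given as a description. The same 5 lymphomas were the highest under all 10 other ways of scoring that were tried, which used each gene alone, each pair, set medians, no centring, all probe sets, or 98 other type I interferon genes. All but the last of these reuse the 3 genes, and the last uses the same arrays, so this too is a description only.

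Irf7, the transcription factor that amplifies type I interferon production, was at 10.58, 8.87, 8.58 and 8.34 log2 in lymphomas 13, 4, 7 and 22, and at 6.11 to 7.76 (median 6.82) in the 32 other lymphomas of set 1. In set 2 it was at 9.04 in lymphoma 39 and at 7.39 to 7.62 in the 6 others. Oasl2, an oligoadenylate synthetase-like antiviral protein, was at 9.26, 7.21, 7.04 and 5.86 in the 4 lymphomas of set 1 against 3.41 to 5.55, and at 6.50 in lymphoma 39 against 4.58 to 4.92. Rsad2, which encodes the antiviral enzyme viperin, was at 12.83, 9.28, 8.63 and 9.26 against 6.07 to 7.63 in set 1, and at 8.39 in lymphoma 39 against 6.33 to 7.12. No other lymphoma reached the level of any of the 5 for any of these genes. The difference between the groups, 5 minus 38 with the set in the fit, was 2.12 for Irf7, 2.90 for Oasl2 and 3.07 for Rsad2.

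**Figure D1:**
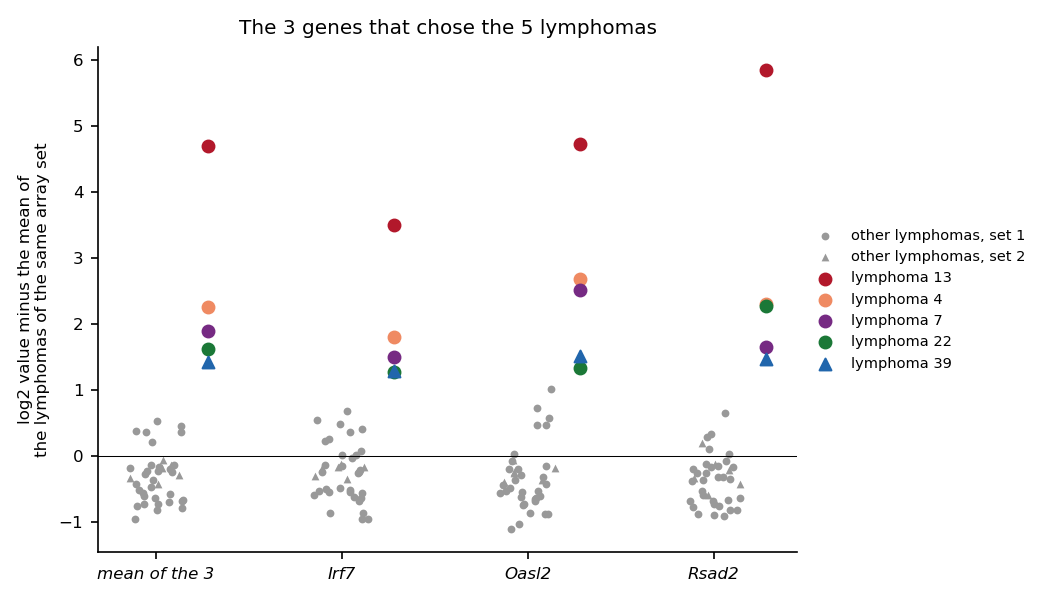
Log2 value minus the mean of the lymphomas of the same array set, for the mean of the 3 genes that chose the lymphomas and for each gene; each point is 1 lymphoma, grey for the 38 others and coloured for the 5. Lymphoma 13 lies highest throughout, at 4.70 for the mean, and none of the 38 lies above 0.53 for the mean.

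Lymphoma 13 stood apart from the other 4 beyond its interferon genes. The mean of 6 adipocyte genes was 4.58 log2 units above the set mean there, against -0.13 to 0.21 in the other 4 and at most 1.87 in the 38. The mean of 17 stroma and endothelium genes was 4.49 there, against a highest value of 2.18 in the 38. Its pan B cell genes lay low, at -1.29, with 37 of the 38 (-2.71 to 0.79) above it. Results are therefore also given without lymphoma 13, and set 1 and set 2 are given separately where they differ. Of the 38, lymphomas 9, 32 and 40 had low pan B cell values (-1.05, -2.71 and -0.78), and leaving these 3 out gave 1598 genes higher and 2881 lower in place of the counts below. Leaving out lymphoma 13 as well gave 1210 higher and 1816 lower.

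The column medians of the 5 arrays, 6.34 to 6.45 in set 1 and 6.96 in set 2, lay above those of all others of the same set (6.21 to 6.31 and 6.85 to 6.88). The difference between 3' and 5' control probe sets for Actb and Gapdh, a measure of RNA quality, was 0.12 to 0.71 in the 5, within the 0.10 to 1.18 of the 38.

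Short promoter stretches are shown for 5 interferon-stimulated genes with large differences and a match to a sequence element, because their known regulation rests on it. The core of the interferon-stimulated response element, the binding site of that complex, was searched as GAAA, any 2 bases and GAAA again, on both strands of the 250 bases before and 50 bases after each RefSeq gene start (GRCm38.p6). Each stretch of 60 bases is written 5′ to 3′ along the gene's strand, and capitals mark a match.
Rsad2: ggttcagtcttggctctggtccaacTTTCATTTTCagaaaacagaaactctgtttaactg
Ifit1: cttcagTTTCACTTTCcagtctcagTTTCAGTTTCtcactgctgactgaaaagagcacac
Ifit3: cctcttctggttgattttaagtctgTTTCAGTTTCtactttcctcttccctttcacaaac
Cxcl10: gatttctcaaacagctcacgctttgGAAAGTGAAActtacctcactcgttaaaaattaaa
Gbp2: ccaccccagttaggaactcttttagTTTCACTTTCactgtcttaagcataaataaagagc
These are chr12:26456538-26456597 (minus strand), chr19:34640779-34640838 (plus), chr19:34583382-34583441 (plus), chr5:92349068-92349127 (minus) and chr3:142620579-142620638 (plus). The first base of the marked match nearest the gene start lay 120, 85, 122, 213 and 59 bases before that start.

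A match was present in 15 of 28 antiviral effector genes with a promoter in the table (53.6%), in 7 of 13 genes of the interferon gamma group (53.8%) and in 3 of 7 nucleic acid sensors (42.9%). It was present in 3 of 19 other type I interferon targets (15.8%), in 2 of 14 signalling genes (14.3%) and in 0 of 2 genes of Isg15 conjugation, against 1079 of all 27025 genes (3.99%). The highest share was that of the genes for interferons themselves, 7 of 10 (70%). Of the 3 genes that chose the lymphomas, Rsad2 had a match, and Irf7 and Oasl2 had none in this window. A gamma-activated site, TTCNNNGAA, was found in 8 of the 28 effectors (28.6%), in 3 of the 13 interferon gamma genes (23.1%) and in 2582 of all genes (9.55%). It was also found in 5 of the 10 genes for interferons (50%) and in 5 of the 14 signalling genes (35.7%). The macrophage list described below held 0 of 13 promoters with the response element core and 1 of 13 with the gamma-activated site. A match is a description of these letters only.

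Over all 12390 genes tested apart from the 3, 1495 (12.1%) were higher and 2719 (21.9%) were lower in the 5 lymphomas (limma, adjusted p under 0.05). Another scaling changed this split: with equal column medians 1247 were higher and 5179 lower, and without the set in the fit 990 were higher and 431 lower. The median difference of all genes was -0.09, and -0.19 with equal column medians. Most differences of at least 1 log2 unit were upward, 684 genes (5.52%) against 87 downward (0.702%). Without lymphoma 13 the calls were 1088 higher (8.78%) and 1642 lower (13.3%), and 992 of the 1495 and 1551 of the 2719 were called in the same direction in both fits. The groups had been chosen from the same arrays by interferon genes, so the differences of interferon genes are given with their SE and no test, and nothing is read from their share of calls. Of the measured genes of the 7 interferon lists, apart from the 3, 78 were past the threshold upward and 5 downward.

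Of the 10 measured genes for interferons themselves, 2 were past the threshold upward and 3 downward. Without lymphoma 13 these were 1 and 0, and with quantile scaling 1 and 4. The 2 upward were Ifng and Ifnz, a limitin-type interferon gene, whose difference was 0.46 ± 0.18. Ifnz was at 0.94, 0.63, -0.28, -0.16 and 0.90 in lymphomas 13, 4, 7, 22 and 39, within the -0.67 to 1.08 of the 38. Ifnb1 (interferon beta) had a difference of -0.28 ± 0.09 (SE), Ifna4 of -0.18 ± 0.07, Ifna2 of 0.04 ± 0.06 and Ifnab of -0.04 ± 0.08. The Ifng gene, for interferon gamma, had a difference of 1.66 ± 0.33. It lay at 2.26, 2.49 and 2.76 in lymphomas 4, 7 and 39, above all of the 38 (-0.98 to 1.64, median -0.36), but at -0.16 in lymphoma 13 and -0.01 in lymphoma 22. Thus the lymphoma with the highest interferon-stimulated genes had one of the 2 lower Ifng values of the 5. Its T cell list mean was 0.36 and its NK and cytotoxic mean 1.03. Those means were 0.44 and 0.35 in lymphoma 22 and 0.65 to 1.88 and 1.25 to 1.82 in the other 3.

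Among 14 signalling and transcription genes the median difference was 0.59, 8 were past the threshold upward and 0 downward. Irf9, a DNA-binding part of the complex named above, had a difference of 1.09 ± 0.25, with 1.21, 1.49, 1.48, 0.13 and 0.48 in lymphomas 13, 4, 7, 22 and 39 and -1.30 to 1.11 in the 38. Irf1, a factor induced by both interferon types, had a difference of 1.24 ± 0.31, and the feedback inhibitor Socs3 one of 2.21 ± 0.39. Socs3 was at 2.24 to 2.69 in 4 of the 5 and at 0.06 in lymphoma 22. Of the receptor genes, Ifnar1 had a difference of 0.08 ± 0.17 and Ifnar2 one of 0.81 ± 0.31. Irf3, which is activated by phosphorylation of existing protein, had a difference of -0.05 ± 0.10.

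Of 12 nucleic acid sensors, 7 were past the threshold upward, and the mean of the list put all 5 lymphomas above each of the 38. Ifi204, a DNA-binding sensor of the pyrin and HIN domain family, was at 4.46, 2.57, 2.78, 0.76 and 2.71 in lymphomas 13, 4, 7, 22 and 39 and at -0.71 to 0.29 (median -0.37) in the 38. The groups did not overlap, and the difference was 3.01 ± 0.21, or 2.56 ± 0.17 without lymphoma 13. Ifih1, a cytosolic sensor of double-stranded RNA, was at 3.50, 2.04, 1.68, 1.78 and 1.71 against -1.16 to 1.09. Its relative Dhx58 was at 2.33, 1.37, 1.54, 0.66 and 0.92 against -1.0 to 0.52, so neither overlapped. Zbp1, a sensor of nucleic acids in the Z form, had a difference of 2.70 ± 0.34 and Tlr7, the endosomal receptor for single-stranded RNA, one of 1.81 ± 0.33. The sensors Sting1 (-0.02 ± 0.29), Tlr9 (-0.03 ± 0.09) and Aim2 (0.10 ± 0.22) had differences within their SE.

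Antiviral effectors, the proteins that block virus entry, translation or replication, numbered 32 measured genes with a median difference of 1.20. The median was 1.46 in set 1 and 0.51 in set 2. Of these 25 were past the threshold upward and 1, Slfn3, downward. Ifit1, whose product binds the ends of foreign RNA, was at 5.73, 2.86, 2.02, 2.53 and 0.95 in lymphomas 13, 4, 7, 22 and 39 and at -1.25 to 1.30 in the 38. Its neighbour Ifit3 was at 5.81, 2.56, 1.94, 2.48 and 0.63 against -1.30 to 0.96. Lymphoma 39 thus lay inside the range of the 38 for both genes, and the other 4 lay above it. The difference of Ifit1 was 3.70 in set 1 and 1.11 in set 2, and that of Ifit3 was 3.59 and 0.74.

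Ifitm3, a membrane protein that restricts virus entry, was at 4.37, 2.83, 3.32, 1.92 and 2.27 against -3.04 to 1.60, without overlap, and its difference was 3.33 ± 0.42. Oas1a, a synthetase of the oligoadenylates that activate RNase L, had a difference of 2.42 ± 0.35. The dynamin-like GTPase gene Mx1 had one of 2.36 ± 0.33, or 1.75 without lymphoma 13. Apobec3, a restriction factor for retroviruses, had a difference of 0.09 ± 0.29, and its values of -0.58 to 0.85 in the 5 lay within the -1.90 to 1.26 of the 38.

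All 3 measured genes of the Isg15 conjugation system were past the threshold upward, and 2 with quantile scaling or equal column medians. Usp18, which removes Isg15 and restrains the receptor, was at 4.14, 2.55, 2.10, 2.84 and 0.81 in lymphomas 13, 4, 7, 22 and 39 and at -1.45 to 1.38 in the 38. Its difference was 3.27 in set 1 and 0.95 in set 2. The activating enzyme Uba7 had a difference of 0.96 ± 0.19, and the conjugating enzyme Ube2l6 one of 0.38 ± 0.14. For Ube2l6 the value without lymphoma 13 was 0.11, and lymphoma 13 alone was above the range of the 38.

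Of 27 other type I interferon targets, 18 were past the threshold upward and 1 downward. Lgals3bp, a secreted galectin-binding glycoprotein, was at 3.60 in lymphoma 13 and at 2.79 to 2.88 in the other 4, all above the 38 (-2.28 to 1.73). Ccl12, a chemokine for monocytes, was at 4.23, 3.26, 3.31 and 3.65 in lymphomas 13, 7, 22 and 39 but at 0.31 in lymphoma 4, inside the range of the 38 (-0.74 to 1.35). Rtp4 had a difference of 2.89 ± 0.54. The nuclear body genes Pml (-0.05 ± 0.32) and Daxx (-0.07 ± 0.09) had differences within their SE.

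The interferon gamma group had the largest median difference of the interferon lists, 1.94 over 19 genes, of which 15 were past the threshold upward and 0 downward. Cxcl9, a chemokine that draws T cells and NK cells, had the largest difference of the named interferon genes, 4.33 ± 0.39. It was at 4.19, 3.0, 2.58, 4.89 and 4.46 in lymphomas 13, 4, 7, 22 and 39 and at -1.29 to 2.10 (median -0.82) in the 38, without overlap. Cxcl10, which binds the same receptor, was at 4.08, 2.57, 1.74, 3.84 and 2.24 against -0.93 to 2.06, so that only lymphoma 7 fell inside. Iigp1, a GTPase that attacks the vacuoles of intracellular pathogens, had a difference of 4.05 ± 0.57. The guanylate-binding protein genes Gbp2 and Gbp8 had differences of 3.68 ± 0.56 and 3.11 ± 0.41. Cxcl11, another ligand of that receptor, had a difference of 0.08 ± 0.07. The order of the 5 was not that of the effectors: the list mean of the interferon gamma group was 2.19, 1.69, 1.37, 1.45 and 1.70 in lymphomas 13, 4, 7, 22 and 39, whereas the mean of the antiviral effectors was 2.31, 1.24, 1.11, 0.69 and 0.49.

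**Figure D2:**
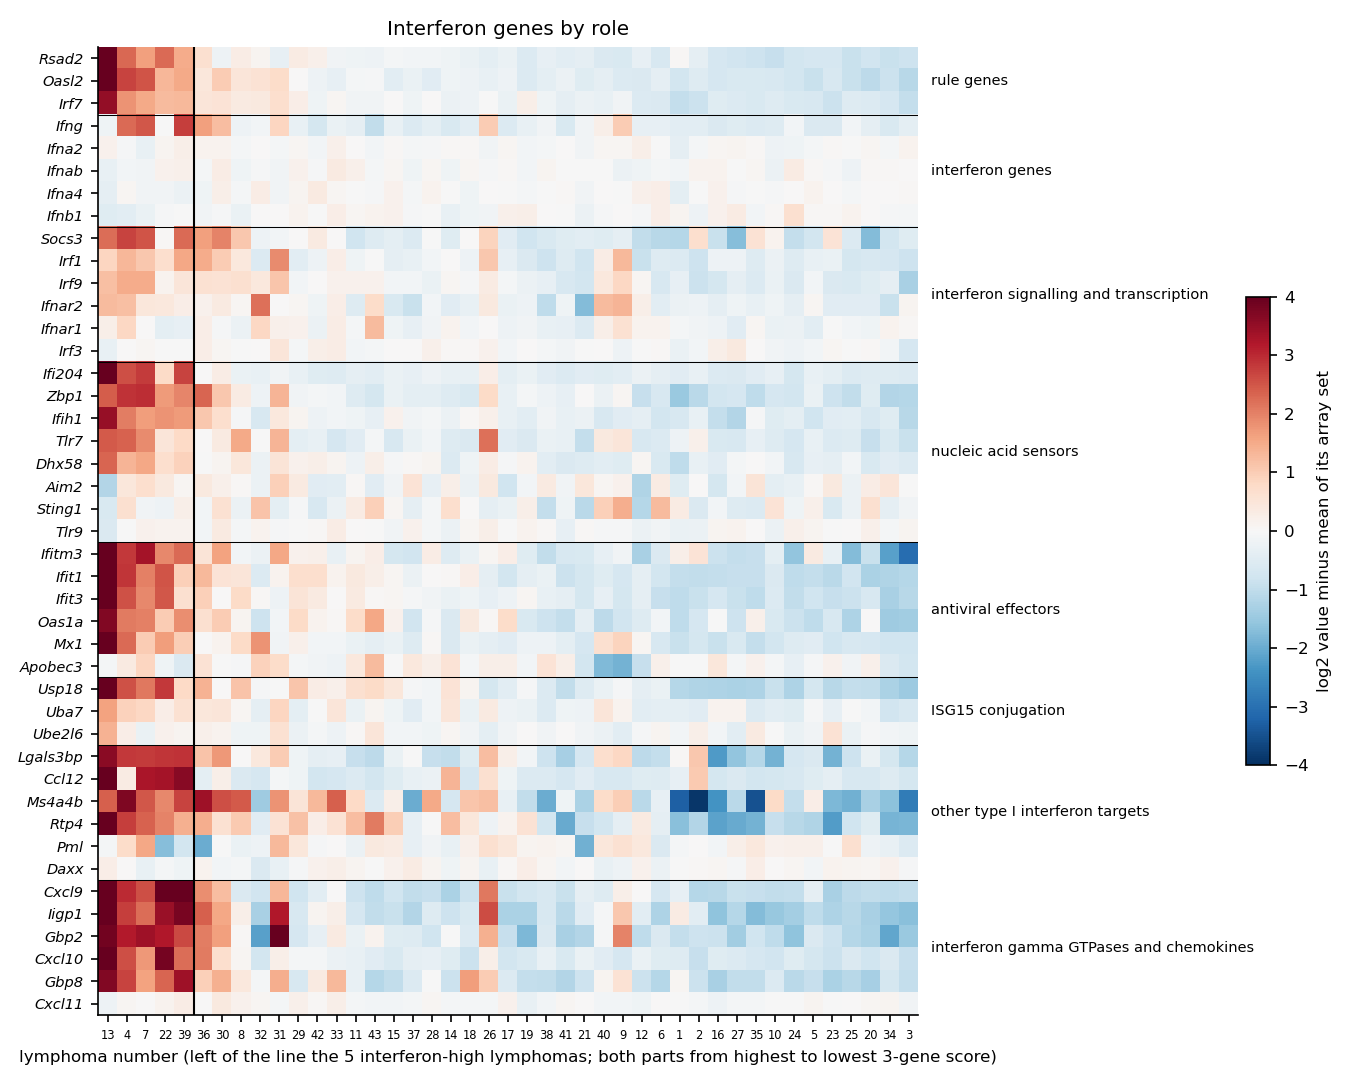
Interferon genes (rows, grouped by role) in the 43 lymphomas (columns, ordered by the 3-gene mean), as log2 value minus the mean of the array set; values beyond the ends of the colour bar are drawn in its end colours. The 5 lymphomas left of the line are high for most sensors, effectors and interferon gamma targets, while Ifng is high in lymphomas 4, 7 and 39 and the type I interferon genes are pale throughout.

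Antigen presentation genes are also targets of both interferon types, so their differences are given without a test. Nothing is read from their counts past the threshold. Of 16 genes of class I presentation and the immunoproteasome, 12 were past the threshold upward and 0 downward. H2-K1, a class I heavy chain, had a difference of 1.25 ± 0.23, the light chain B2m one of 0.93 ± 0.18 and the peptide loading protein Tapbp one of 1.05 ± 0.18. B2m was at 0.86 to 0.97 in 4 of the 5 and at 0.44 in lymphoma 22, against -0.84 to 0.86 in the 38. Of 11 genes of class II presentation 9 were past the threshold upward. H2-Ab1 had a difference of 1.13 ± 0.34 and the costimulator Cd86 one of 1.63 ± 0.42. The class II list mean was 0.96 to 1.49 in lymphomas 4, 7, 22 and 39 and -0.20 in lymphoma 13.

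Genes outside the interferon lists were tested in the same fit, and the C1q genes of the macrophage list had 3 of the 5 largest differences of all genes. Some genes outside the lists may also follow interferon, and the limit given for the interferon lists then applies to their p-values. Of 22 macrophage genes, 20 were higher and 0 lower, against 12.1% and 21.9% of all genes. Their median difference was 2.23 against -0.09 for all genes. Without lymphoma 13, 17 were higher and the median was 1.93. The mean of the list was 3.03, 1.13, 1.79, 1.53 and 2.30 in lymphomas 13, 4, 7, 22 and 39, and 3 of the 38 (-1.16 to 1.24) exceeded the lowest of these. In bulk samples more cells of a type and more RNA per cell cannot be told apart.

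C1qa, a subunit of complement component C1q, which tissue macrophages make, was at 4.81, 2.20, 3.06, 3.57 and 4.0 in lymphomas 13, 4, 7, 22 and 39 and at -2.41 to 2.16 in the 38. All 5 lay above the 38, and the difference was 4.0 ± 0.58 (limma adjusted p = 2.85e-06). C1qb and C1qc, its partner subunits, differed by 4.36 ± 0.72 (adjusted p = 2.39e-05) and 3.96 ± 0.61 (adjusted p = 7.38e-06). Csf1r, the receptor that macrophages need for survival, was at 3.43, 2.33, 2.13, 2.61 and 3.07 against -2.04 to 1.63, without overlap. Its difference was 3.08 ± 0.34 (adjusted p = 1.06e-08), with 2.95 in set 1 and 3.58 in set 2. The Fc receptor Fcgr1 differed by 2.85 ± 0.34 (adjusted p = 7.46e-08) but was at -0.19 in lymphoma 22. Mertk, a receptor for the uptake of dead cells, differed by 2.30 ± 0.30 (adjusted p = 3.98e-07). The 2 macrophage genes short of the threshold were Cd163 and Siglec1.

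The other genes named for large differences outside the interferon lists fell under no single list. Basp1, a membrane-associated protein, differed by 3.86 ± 0.94 (adjusted p = 0.00198), and by -1.39 with T cell, cytotoxic and macrophage scores in the fit. Apoe, a lipid carrier of the macrophage list, differed by 3.39 ± 0.64 (adjusted p = 0.000151), and the cholesterol exporter Abca1 by 3.14 ± 0.68 (adjusted p = 0.000653). The fungal receptor Clec7a differed by 3.18 ± 0.43 (adjusted p = 7.31e-07), the chemokine Ccl8 by 3.70 ± 0.52 (adjusted p = 1.56e-06) and the transglutaminase Tgm2 by 3.45 ± 0.51 (adjusted p = 4.43e-06). With the macrophage score in the fit the difference was -0.35 for Abca1 and -0.11 for Tgm2, and with the 3 scores -0.64 and -0.34. The prion protein gene Prnp and the amyloid precursor gene App differed by 3.47 ± 0.52 and 3.41 ± 0.48. Cfb, complement factor B, was at 2.98, 1.75, 3.24, 4.12 and 2.47 in lymphomas 13, 4, 7, 22 and 39 and at -1.01 to 1.40 in the 38. It had no overlap and differed by 3.30 ± 0.26 (adjusted p = 2.01e-12). Cfb also rose with the 3-gene score within the 38, by 0.81 ± 0.17 per unit (limma adjusted p = 0.00189). It thus moved with the genes that chose the groups, and its p-value carries the limit given for the interferon lists. Over all genes, 30 (0.242%) had all 5 above every other lymphoma and 17 (0.137%) all 5 below, and 9 of the 30 were in the interferon lists.

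Markers of T cells and of NK and cytotoxic cells were higher as well, but with overlap. Of 17 T cell genes 9 were higher and 0 lower, and of 17 NK and cytotoxic genes 13 were higher and 1 lower. Over all genes the shares were 12.1% higher and 21.9% lower. The T cell receptor subunit gene Cd3d was at 0.86, 3.0, 1.55, 1.10 and 2.77 in lymphomas 13, 4, 7, 22 and 39 against -2.80 to 3.21. Its difference was 2.10 ± 0.63 (adjusted p = 0.00945). The costimulator Icos differed by 1.34 ± 0.33 (adjusted p = 0.0020), with 1.02 in set 1 and 2.67 in set 2. Gzmb, a protease of cytotoxic granules, was at 2.06, 4.28, 4.07 and 3.38 in lymphomas 13, 4, 7 and 39 and at -0.09 in lymphoma 22, against -1.73 to 3.23 in the 38. It differed by 3.11 ± 0.64 (adjusted p = 0.000366). Klrk1, an activating receptor of NK cells, differed by 1.07 ± 0.15 (adjusted p = 1.02e-06). Ccl5, a chemokine of cytotoxic cells, differed by 3.25 ± 0.69 (adjusted p = 0.000533).

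Plasmacytoid dendritic cells are the classical source of type I interferon. Of 12 of their genes 2 were higher and 1 was lower, near or under the 12.1% and 21.9% of all genes. The 2 were Lair1 (1.58 ± 0.28, adjusted p = 6.55e-05) and Tcf4 (1.20 ± 0.37, adjusted p = 0.0126), of which the former is also made by other leukocytes. The list mean of the 5, -0.42 to 1.08, lay within the -0.81 to 1.48 of the 38. Siglech, a gene of this list, was not among the genes measured, and Spib is also listed as a mature B cell gene. The list therefore cannot separate these cells from B lineage cells, and their share was not tested. Of 14 conventional dendritic cell genes 8 were higher, or 5 without lymphoma 13, among them Xcr1 by 0.43 ± 0.08 (adjusted p = 1.00e-04) and Id2, a factor of many leukocytes, by 2.53 ± 0.47 (adjusted p = 0.000104). Of 14 neutrophil genes only Csf3r passed, at 0.43 ± 0.14 (adjusted p = 0.0149), and 0 of 11 erythroid genes were higher.

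Stroma genes were higher in some of the 5 only. Of 17 stroma and endothelium genes 14 were higher with all 5 lymphomas and 4 without lymphoma 13, against 12.1% and 8.78% of all genes. The median difference of the list went from 1.37 to 0.58. The collagen gene Col1a2 was at 6.63, 2.91 and 3.58 in lymphomas 13, 7 and 22 but at -0.56 and 0.04 in lymphomas 4 and 39. In set 2 the median difference of the list was 0.02. Of 6 adipocyte genes 3 were higher, and 0 without lymphoma 13. Adipoq, an adipocyte hormone, was at 7.51 in lymphoma 13 and at -0.54 to -0.20 in the other 4.

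**Figure D3:**
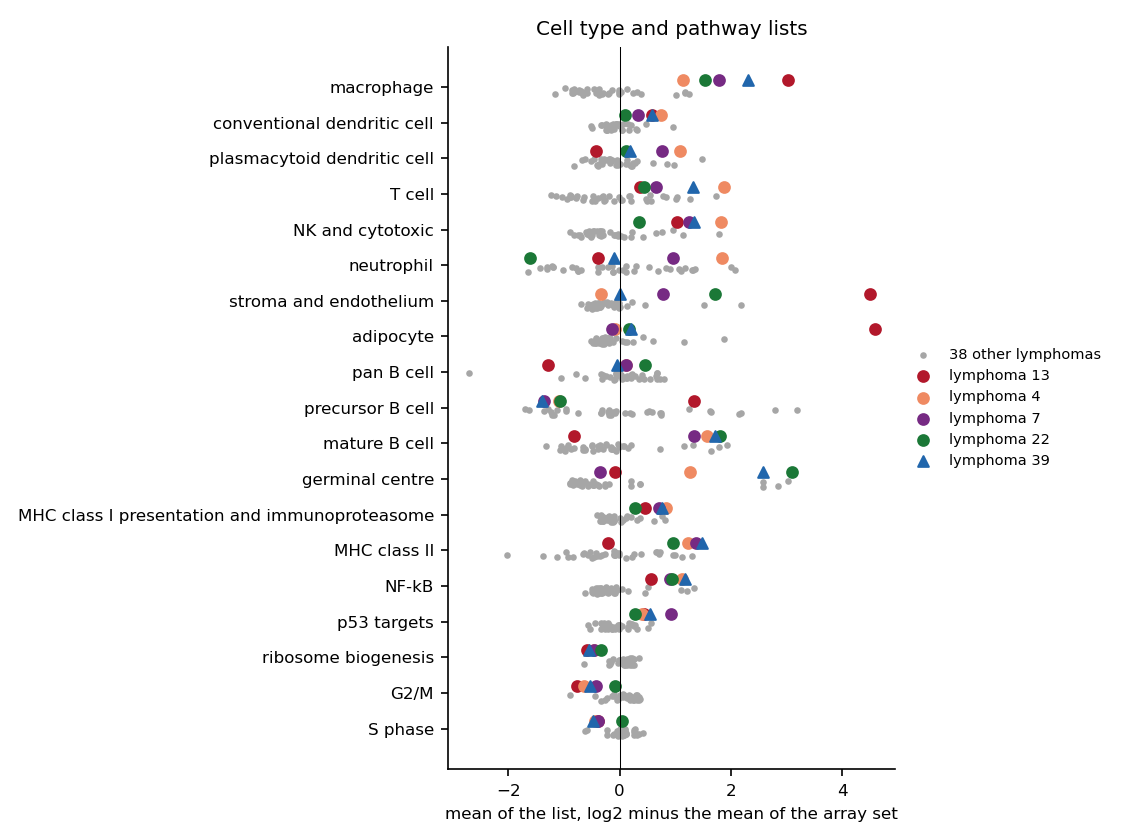
Mean of each gene list in each lymphoma, as log2 value minus the mean of the array set; grey points are the 38 others and coloured points the 5, with a triangle for lymphoma 39 of set 2. All 5 lie on the high side for macrophage genes (1.13 to 3.03), while lymphoma 13 alone lies far out for adipocyte genes (4.58) and on the other side from the remaining 4 for precursor and mature B cell genes.

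Because the macrophage list moved with the groups, the fit was repeated with its mean as a covariate, a choice made after seeing the data. With it 22 genes were higher (0.178%) and 0 were lower (0%), against 529 higher and 499 lower at an unadjusted p under 0.05. The score and the grouping overlapped, and the median SE grew from 0.124 to 0.186 with it. With the mean of C1qa, C1qb and C1qc in its place 95 genes were higher (0.767%) and 30 lower (0.242%), and all 22 were among the calls. With T cell, cytotoxic and macrophage scores together 13 were higher (0.105%) and 0 lower, and 12 of the 22 were kept. Of the 22, 10 were in the interferon lists, whose differences stay without a test.

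The interferon genes among the 22 were Ifi204, Ifih1, Dhx58, Ifit1, Ifit3, Usp18, Cxcl9, Cxcl10, Ccl2 and Ccl12. With the macrophage score, the difference of Ifit1 went from 3.19 to 2.69, that of Usp18 from 2.82 to 2.74, that of Cxcl10 from 3.28 to 2.56 and that of Cxcl9 from 4.33 to 2.79. Other interferon genes lost more of their difference: Iigp1 went from 4.05 to 1.33, Tlr7 from 1.81 to 0.58 and Ms4a6d, a membrane protein gene, from 3.04 to 0.45. Over whole lists, the median difference of the antiviral effectors went from 1.20 to 1.13, and that of the interferon gamma group from 1.94 to 0.71. Class I presentation genes went from 0.77 to 0.29. Other type I targets went from 1.27 to 0.85, sensors from 0.78 to 0.51 and Isg15 conjugation from 0.96 to 0.62. Among effectors, Ifitm3 went from 3.33 to 1.73. Differences between the lists were not tested.

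Outside the interferon lists, 12 genes stayed past the threshold with the macrophage score. They are named here after their values were seen, apart from Cfb. Cfb, Aif1, Ly6i and Slamf8 also rose with the 3-gene score within the 38 (limma, adjusted p under 0.05). Their p-values carry the limit given for the interferon lists. The rest of the 12 did not pass in that fit, with slopes from -0.004 ± 0.14 (Popdc3) to 0.38 ± 0.16 (Tmem106a). Not passing there does not free these genes from the same limit. Cfb had a difference of 2.27 (adjusted p = 0.000230), Cp, the copper protein ceruloplasmin, one of 1.59 (adjusted p = 5.62e-05) and Aif1, an actin-binding protein of macrophages, one of 1.40 (adjusted p = 0.00712). The others were C77080, Anxa3, Ly6i, Ptgir, Popdc3, Slamf8, Hsd3b7, Igsf6 and Tmem106a, with differences of 0.75 to 1.38.

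**Figure D4:**
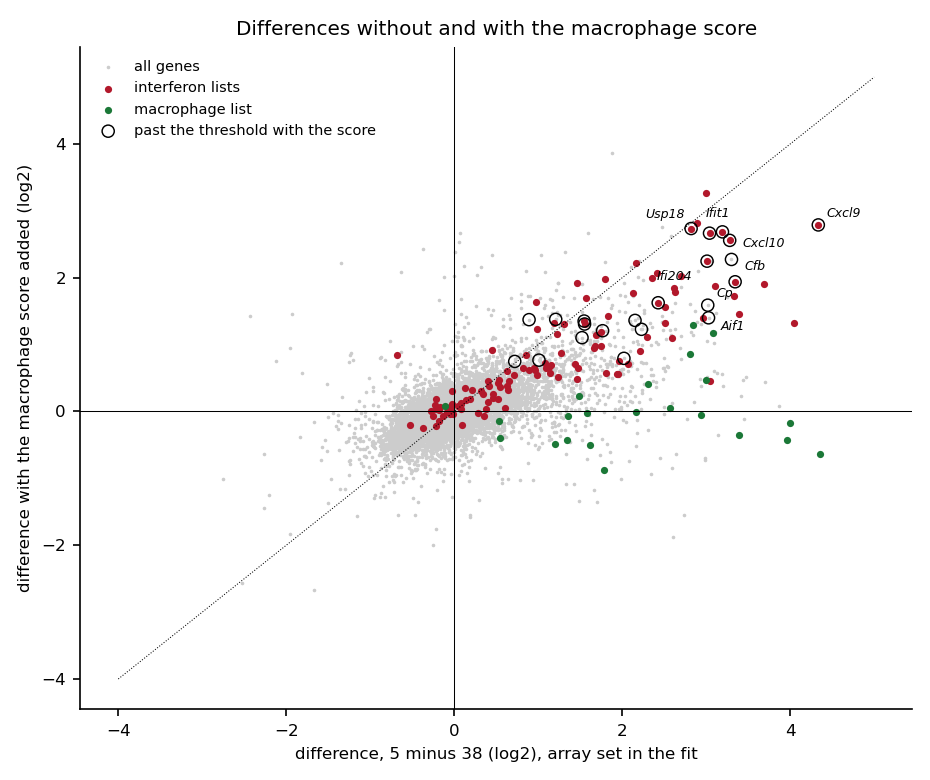
Difference between the 5 and the 38 lymphomas in log2 units, without (horizontal) and with (vertical) the macrophage score in the fit, for all genes; the dotted line marks equal values and rings mark the 22 genes past the threshold with the score. Macrophage genes drop to around 0, as they make up the score, while Ifit1 and Usp18 stay near the line at 2.69 and 2.74.

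The precursor and mature B cell lists set lymphoma 13 apart from the other 4. Of 9 pan B cell genes 0 were higher and 0 lower. Cd79a, a signalling chain of the B cell receptor, had a difference of -0.74 ± 0.49 (adjusted p = 0.234). The precursor B cell list mean was -1.09, -1.35, -1.08 and -1.40 in lymphomas 4, 7, 22 and 39 and 1.34 in lymphoma 13. The mature B cell list mean was 1.57, 1.33, 1.81 and 1.71 against -0.82 in lymphoma 13. In the 38 these means spanned -1.70 to 3.18 and -1.32 to 1.93, so both kinds also occurred there.

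Of 10 mature B cell genes 5 were higher, and 6 without lymphoma 13, against 12.1% and 8.78% of all genes. The median difference of the list was 0.90 in set 1 and 2.25 in set 2. H2-DMb2 is in this list and in the class II list, which is given without a test. Cd40, a receptor for T cell help, was at 1.71, 1.02, 0.99 and 2.19 in lymphomas 4, 7, 22 and 39 and at 0.08 in lymphoma 13. Its difference was 1.36 ± 0.33 (adjusted p = 0.00216). Cd83, an activation marker, differed by 3.44 ± 0.78 (adjusted p = 0.00103), and the complement receptor Cr2 by 2.18 ± 0.69 (adjusted p = 0.0143). With T cell, cytotoxic and macrophage scores in the fit the difference was -1.19 for Cd83, -0.16 for Cd40 and -0.26 for Cxcr5. Cxcr5, the receptor that leads B cells to follicles, was at 1.84 to 2.66 in 4 of the 5 and at -1.32 in lymphoma 13. Of 14 precursor genes 0 were higher and 2 lower, against 21.9% of all genes lower. Of these Vpreb3, related to the surrogate light chain, differed by -2.27 ± 0.77 (adjusted p = 0.0218). Sox4, a factor of early B cells, had a difference of -2.43 ± 1.14 (adjusted p = 0.0925), and of -3.59 without lymphoma 13 (adjusted p = 0.0286). Lymphomas 22 and 39 also had high germinal centre genes, with list means of 3.09 and 2.58 against -0.35 to 1.27 in the other 3. Outside the 5 this mean spanned -0.89 to 3.01, so high values also occurred there. It was 3.01 in lymphoma 36, 2.85 in lymphoma 21, 2.57 in lymphoma 8 and 2.56 in lymphoma 30. Gcsam, a germinal centre adaptor, was at 4.82 and 5.04 in lymphomas 22 and 39.

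Genes of growth and division were lower, in a fit in which 21.9% of all genes were lower. Myc was at -0.57, -0.78, -0.58, -0.58 and -1.25 in lymphomas 13, 4, 7, 22 and 39 and at -1.31 to 0.98 (median 0.13) in the 38. All 5 were below the median but inside the range, and the difference was -0.85 ± 0.24 (adjusted p = 0.00591). It was -0.90 without lymphoma 13, and -0.70 and -1.46 in set 1 and set 2. Of 23 ribosome biogenesis genes 0 were higher and 21 lower, with a median difference of -0.55 against -0.09 for all genes. With equal column medians 23 were lower, and without the set in the fit 8. Polr1b, a subunit of RNA polymerase I, differed by -0.85 ± 0.14 (adjusted p = 2.12e-05), and the nucleolar methyltransferase Fbl by -0.53 ± 0.09 (adjusted p = 5.12e-05).

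Of 21 genes of G2 and mitosis 19 were lower, or 14 without lymphoma 13, against 21.9% and 13.3% of all genes. Their median difference was -0.57. Without the set in the fit 5 were lower. The kinetochore gene Cenpf was at -0.97, -1.09, -0.85, -0.29 and -1.06 against -0.93 to 0.79, and differed by -0.96 ± 0.18 (adjusted p = 0.000106). Bub1b, a mitotic checkpoint kinase, was at -1.09 to -0.77 in 4 of the 5 and at 0.01 in lymphoma 22. Its difference was -0.84 ± 0.20 (adjusted p = 0.00127). Of 21 S phase genes 11 were lower, or 1 without the set in the fit, among them the uracil glycosylase Ung (-0.71 ± 0.14, adjusted p = 0.000182) and the helicase subunit Mcm3 (-0.55 ± 0.12, adjusted p = 0.000926). With the macrophage score in the fit 0 genes of these lists passed, and the median difference was -0.29 for ribosome biogenesis, -0.28 for G2 and mitosis and 0.07 for S phase. The part of other cell types in these lower values was not tested.

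Some of the lowest differences were of genes with no list. Chchd6, a mitochondrial inner membrane gene, was at -1.58 to -0.94 in the 5 against -1.16 to 0.71 in the 38 and differed by -1.47 ± 0.18 (adjusted p = 9.85e-08). Ptgr1, a prostaglandin reductase, differed by -2.27 ± 0.73 (adjusted p = 0.0154), and Egfl6, a secreted matrix protein, by -1.96 ± 0.78 (adjusted p = 0.0492). The Egfl6 call was lost without lymphoma 13 (-2.13, adjusted p = 0.0738).

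Of 15 p53 target genes 6 were higher and 0 lower, against 12.1% and 21.9% of all genes. Cdkn1a, the cell cycle inhibitor p21, was at 1.44, 1.53, 3.61, 1.70 and 2.50 in lymphomas 13, 4, 7, 22 and 39 and at -1.20 to 1.70 in the 38. It differed by 2.44 ± 0.34 (adjusted p = 9.90e-07), the Akt repressor Phlda3 by 1.16 ± 0.21 (adjusted p = 6.23e-05) and Mdm2, the p53 ligase, by 0.40 ± 0.09 (adjusted p = 0.00112). Cdkn2a, the tumour suppressor locus often lost in this model, had a difference of 0.19 ± 1.10 (adjusted p = 0.908), with values of -1.32 to 2.05 in the 5 and -3.71 to 3.78 in the 38. Of 11 death receptor and caspase genes 5 were higher, among them the inflammatory caspase Casp4 (1.91 ± 0.43, adjusted p = 0.000882). Tnfsf10 of this list is also in the list of other type I interferon targets, so the limit given for the interferon lists applies to this count. Of 14 NF-kB genes 10 were higher and 0 lower. Relb, a subunit of the alternative pathway, differed by 1.80 ± 0.40 (adjusted p = 0.000747) and the inhibitor Nfkbia by 1.01 ± 0.19 (adjusted p = 0.000137).

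The 3-gene mean also varied within the other 38 lymphomas, from -0.96 to 0.53, and a second fit related each gene to it there. These 38 are also one side of the comparison above, so the values are set side by side only. In the 38, 789 genes (6.37%) rose with the score and 965 (7.79%) fell (limma, adjusted p under 0.05). Without lymphomas 36 and 30, whose scores lie farthest from the median, 205 rose and 253 fell. With a stage score in the fit, taken as the mature B cell list mean less that of precursor B cells, 255 rose and 259 fell, and with T cell, cytotoxic and macrophage scores 5 rose and 0 fell.

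The score is made of interferon-stimulated genes, so the slopes of the interferon lists are given with their SE and no test, and nothing is read from their counts. Of 32 effectors, 17 were past the threshold upward and 2 downward, with slopes per log2 unit of the score of 1.39 ± 0.14 for Ifit1, 1.20 ± 0.11 for Ifit3 and 0.93 ± 0.18 for Mx1. The slope of Usp18 was 1.62 ± 0.19 and that of Irf9 0.99 ± 0.15. Of the interferon gamma group 12 of 19 were past the threshold upward, and Cxcl10 had a slope of 0.95 ± 0.17. Ifng had a slope of 0.77 ± 0.21. The slope of Ifi204 was 0.33 ± 0.07 and that of Ccl12 0.25 ± 0.19, beside differences of 3.01 and 3.34 in the 5. In the others of set 1 their median levels were only 3.125 and 3.83 log2, where the lowest value of all arrays was 2.36. Such low signals limit what these 2 slopes can show.

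Cell type genes are given for both fits side by side, beside 12.1% of all genes higher in the 5 and 6.37% rising in the 38. Of the macrophage genes 20 of 22 were higher in the 5, and 1 of 22, Csf1r (0.97 ± 0.27, adjusted p = 0.0138), rose with the score in the 38. The median slope of the macrophage list was 0.43, against -0.02 for all genes and 1.14 for the T cell list. The slope of C1qa was 0.82 ± 0.52 (adjusted p = 0.316). Of the T cell genes 9 of 17 were higher in the 5 and 13 of 17 rose in the 38, with Cd3d at 2.32 ± 0.44 per unit (adjusted p = 0.000661) and Icos at 1.18 ± 0.22 (adjusted p = 0.000404). Of the NK and cytotoxic genes 13 of 17 were higher in the 5 and 10 of 17 rose. The difference between the fits was not tested. With the macrophage score in the second fit 626 genes rose (5.05%), 13 of them of the T cell list, and 690 fell (5.57%).

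B cell stage also followed the score in the 38, where 6.37% of all genes rose and 7.79% fell. Of 10 mature B cell genes 6 rose, with Cd83 at 3.32 ± 0.50 (adjusted p = 6.25e-05) and Cxcr5 at 2.13 ± 0.41 (adjusted p = 0.000694). Of 14 precursor genes 4 fell, among them Sox4 (-2.94 ± 0.88, adjusted p = 0.0208) and the stem and progenitor cell receptor gene Cd93 (-2.63 ± 0.65, adjusted p = 0.00567). Ell2, an elongation factor of antibody-secreting cells, had the largest slope, 3.38 ± 0.73 (adjusted p = 0.00207). Of the unfolded protein response genes 8 of 16 rose in the 38, with a median slope of 0.56, and 4 of 16 were higher in the 5, with a median difference of 0.44. That median difference was 0.17 in set 1 and 1.62 in set 2. Myc fell with the score (-0.74 ± 0.19, adjusted p = 0.00699), as did 10 of 23 ribosome biogenesis genes and 4 of 21 genes of G2 and mitosis. Cdkn1a had a slope of 0.53 ± 0.28 (adjusted p = 0.209), and of the p53 targets 0 rose and 1 fell.

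**Figure D5:**
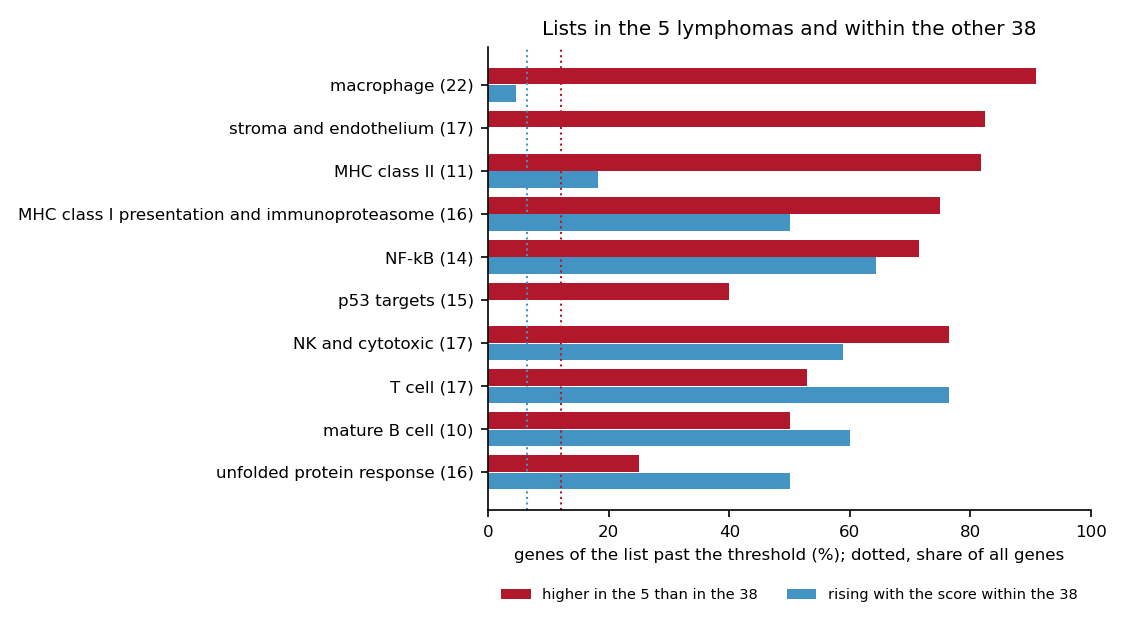
Share of each list past the threshold (limma, adjusted p under 0.05), for genes higher in the 5 lymphomas (red) and genes rising with the 3-gene score within the other 38 (blue); the number of measured genes is in brackets and the dotted lines mark the share of all genes, 12.1% and 6.37%. Macrophage genes reach 20 of 22 in the red fit and 1 of 22 in the blue one, and T cell genes 9 of 17 and 13 of 17. The difference between the fits was not tested. The MHC class I and class II lists hold interferon targets and are shown as a description only.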

How the data were processed

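Total RNA was measured on Affymetrix arrays in 43 lymphomas and 1 spleen. The deposited table holds log2 values that the authors made with RMA in the affy package, per the submitters' processing notes. It has 22690 probe sets, 64 of them controls, in 44 arrays. The values ran from 2.36 to 14.93, and 0 were missing. Arrays have no read depth, and their number limits the precision. Genes were named from the platform annotation: 20380 probe sets had 1 symbol, 691 several and 1555 none, and those with several or none were not used. The probe set with the highest mean stood for a gene, giving 12393 genes.

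The 5 lymphomas were compared with the 38 in limma 3.58.1 (R 4.3.3; lmFit and eBayes) with the array set as a term, over 12390 genes with the 3 choosing genes left out, and with Benjamini-Hochberg adjustment. No filter on low values was applied. A slope on the 3-gene mean was fitted in the same way within the 38. Differences are on the log2 scale, and values per lymphoma are relative to the mean of their set. Tables and figures were made in Python 3.11.15, and the fits were tested on simulated data. The members, the 33 gene lists and the tests were chosen with earlier results of these data known. Named genes were, by rule, up to 6 genes with the largest and 3 with the smallest difference in each interferon list, up to 4 with the largest statistic in each other list, the 15 largest positive and 12 largest negative differences outside the interferon lists, the 10 largest positive and 5 largest negative slopes, and single genes such as Myc, Cdkn2a and Ifng. Slfn3, Cd163, Siglec1, Ccl2 and the genes past the threshold with the macrophage score were named after their values were seen. The alternatives covered filters, scaling, probe set averaging, the set term, limma's settings, group size, left-out lymphomas and cell type scores as covariates.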

Additional observations from a re-analysis of the deposited data

Results flagged for a closer look

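Each of 164 scores and genes was checked for a lymphoma of the 5 that lay far from the other 4, by the gap to its nearest neighbour over the range of the 5 (Dixon's critical value 0.71). Chance flags about 1 in 20 groups. This rate does not hold for Irf7, Oasl2, Rsad2 and their mean, because these values chose the 5. Flags for them are counted below but are a description only. The check picked out 25 items, 14 of them for lymphoma 13, 6 for lymphoma 22, 4 for lymphoma 4 and 1 for lymphoma 7. All values are log2 relative to the mean of the array set.

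Lymphoma 13 was far above the others for the 3-gene mean (4.70), Irf7 (3.51), Rsad2 (5.85), Ifih1 (3.50), Lgals3bp (3.60), the adipocyte list (4.58), Adipoq (7.51) and the precursor B cell list (1.34). It was far below them for the pan B cell list (-1.29), the mature B cell list (-0.82), Cxcr5 (-1.32), Ell2 (0.098, against 2.83 to 3.87), Irf3 (-0.30) and Tlr9 (-0.57).

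Lymphoma 22 was far below the others for Socs3 (0.0564), H2-D1 (0.45), B2m (0.44) and Casp4 (0.81), and far above them for the S phase list (0.0337, against -0.47 to -0.38) and Ung (-0.26). Lymphoma 4 was far below for Ccl12 (0.31) and far above for Csf3r (0.87). It was also far below for the X inactivation transcript Xist (-3.59, against 1.94 to 2.89) and far above for the Y-linked gene Eif2s3y (2.95, against -2.55 to -1.56). Lymphoma 7 was far below for Nfkbia (0.57).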

How the results depend on the processing

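Of 131 genes checked, those given a test kept their direction and side of the threshold with quantile scaling and with equal column medians. Among interferon genes with differences near 0, the sign turned for Irf3 with quantile scaling and for Ifnar1, Ifna2, Aim2, Apobec3 and Cxcl11 with equal column medians. Of the interferon lists, Isg15 conjugation went from 3 to 2 past the threshold under both, and the interferon genes from 2 to 1 upward and from 3 to 4 and 6 downward. The 1495 genes higher in the 5 became 568 when only genes with a mean above the median gene were tested, 990 without the set term, 22 with the macrophage score, 95 with the C1q mean and 13 with T cell, cytotoxic and macrophage scores. The 2719 lower genes became 5179 with equal column medians, 431 without the set term, 0 with the macrophage score, 30 with the C1q mean and 0 with the 3 scores. Leaving out each of the 5 in turn gave 1088 to 1453 higher and 1642 to 2517 lower, the lowest of each without lymphoma 13. Within the 38, the 789 rising genes became 444 with that filter, 510 without the set term, 255 with the B cell stage score, 205 without lymphomas 36 and 30 and 5 with the 3 scores. The 965 falling genes became 92, 259, 253 and 0 under the last 4 of these. Fewer genes were tested under the filter; the cause of the other changes was not tested. The covariates other than the 3 scores and the fits without lymphomas 9, 32 and 40 were chosen after seeing the data.

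Larger differences changed sign with cell type scores in the fit. With the 3 scores the difference was -0.22 for Irf1, 0.0322 for Ifnb1, -0.013 for Tapbp, -0.0367 for Cd86, -0.15 for H2-Ab1, -0.31 for H2-Aa, -0.15 for Id2, -1.25 for Fabp4, -0.34 for Tgm2, -0.64 for Abca1, -1.39 for Basp1 and -1.19 for Cd83. It was 0.0595 for 1700097N02Rik, 0.30 for Ptgr1, 2.0 for Cplx2, 0.22 for Rasgrp2, -0.16 for Cd40, -0.26 for Cxcr5, -0.47 for Bcl6, 0.35 for Myb, -1.16 for Ell2, -0.97 for Xbp1, 0.0152 for Mcm3, -0.67 for Casp4 and -0.24 for Gimap4. With the macrophage score it was 0.0014 for Ifnb1, 0.0185 for Ifna4, -1.88 for Fabp4, -0.11 for Tgm2, -0.35 for Abca1, 1.46 for Cplx2 and -0.36 for Xbp1. With the C1q mean it was 0.0036 for Ifna4, -0.96 for Fabp4, -0.0728 for Abca1 and 0.92 for Cplx2. No paired analysis was possible because the labels number each lymphoma once. Low signals near the arrays' background limit what differences of dim genes can show.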
